A study of Homo sapiens with 3 samples.

Results

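Olfactory receptor (OR) peaks were the YBX1 ChIP-seq peaks whose annotation named at least 1 gene with an OR family symbol, outside chromosomes X and Y. There were 160 of them among the 21585 peaks of replicate 1 (0.741%) and 125 among the 16251 peaks of replicate 2 (0.769%), where the whole lists with both sex chromosomes held 22874 and 17285 peaks. They named 208 OR genes, of 10494 genes named by any peak outside those chromosomes. The choice used the gene symbols alone, and no measured value.

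The study mapped where YBX1 (YB-1), a nucleic acid binding protein with a cold-shock domain, lies on chromatin. HEL, an established human erythroleukaemia line carrying JAK2 V617F, was grown without drug treatment and crosslinked with formaldehyde, and its sheared chromatin was immunoprecipitated with an antibody against YBX1 (clone EP2708Y). The 3 libraries were 2 such immunoprecipitations, numbered replicates 1 and 2 by the labels, and 1 input of sheared chromatin without antibody, which served as the control for both. After duplicate removal 10010819 and 9926271 ChIP tags and 74780414 input tags remained, and the OR peaks held 2690 (0.0269%) and 1865 (0.0188%) of the ChIP tags. HEL is a single cell line, no immunoprecipitation with an unrelated antibody was analysed here, and separate cultures for the replicates are not stated in the labels. A difference between the lists is therefore a difference between these libraries, and its spread may be technical.

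Olfactory receptors are G protein-coupled receptors that sensory neurons of the nose use to detect odorants. Each such neuron is known to express a single receptor allele and to keep the other family members silent. The genes have a coding region in a single exon and lie in clusters across the genome. Class I receptors (families 51, 52, 55 and 56) sit mostly in 1 cluster on the short arm of chromosome 11, and the beta-globin genes, which are active in red cell precursors, lie inside that cluster.

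Only 18 of the 208 OR genes had a peak that the authors' annotation placed in their promoter, an exon or an intron. The other 190 were named only as neighbours of an intergenic peak. An intergenic peak named several genes at once: an OR peak named a median of 2 OR genes and at most 9 in both lists, and 86 and 70 of the OR peaks in replicates 1 and 2 also named genes of other families.

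The 2 sequences below show what the start of such a gene looks like where the annotation put a peak on the gene in both lists. OR5M11 was the only OR gene with a peak labelled as its transcription start, and OR10H2 carried a peak labelled as its exon. Each is the RefSeq window in GRCh38.p14 from 250 bases before to 50 bases after the annotated gene start, written 5′ to 3′ on the strand of the gene. The OR5M11 window is chr11:56543208-56543507 on the minus strand and the OR10H2 window is chr19:15727774-15728073 on the plus strand. Capitals mark CCAAT or its reverse complement ATTGG, the core of the Y-box element after which the YBX family is named. The windows were matched to the peaks by symbol and were not placed against the hg19 peak positions.

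OR5M11: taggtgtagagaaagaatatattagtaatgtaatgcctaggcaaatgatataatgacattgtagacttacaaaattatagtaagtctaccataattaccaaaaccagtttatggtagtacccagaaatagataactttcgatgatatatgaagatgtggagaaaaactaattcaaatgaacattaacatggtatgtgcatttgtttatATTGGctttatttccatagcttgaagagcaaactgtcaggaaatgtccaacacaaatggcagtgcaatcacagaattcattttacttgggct

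OR10H2: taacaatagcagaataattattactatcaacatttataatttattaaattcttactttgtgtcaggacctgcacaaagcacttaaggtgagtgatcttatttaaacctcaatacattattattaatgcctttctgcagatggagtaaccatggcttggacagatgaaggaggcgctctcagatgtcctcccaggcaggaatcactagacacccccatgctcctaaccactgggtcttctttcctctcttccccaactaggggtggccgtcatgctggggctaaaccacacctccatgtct

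The OR5M11 window held 1 match, ATTGG from base 209, and the OR10H2 window held 0. Windows were available for 13 of the 18 OR genes with a peak on the gene (14 windows). They were available for 155 of the 208 OR genes named for a peak (161 windows), and some genes had more than 1. CCAAT or ATTGG occurred in 9 of these 14 windows (64.3%), in 64 of these 161 (39.8%), and in 42.4% of 323 OR windows. Of all 35116 RefSeq windows of the same length, 34.6% held it. The longer Y-box form CTGATTGG, searched on both strands, occurred in 0 of the 161 windows of named OR genes, in 0.619% of the OR windows and in 3.97% of all windows. A run of 3 AGAT units in any rotation on either strand occurred in 1 of the 161 windows and in 5 of all windows (0.0142%). These are matches of letters in a fixed window, and they say nothing of where YBX1 was bound.

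Most OR peaks lay outside genes, and nearly all of the rest were classed as promoter. All peaks outside X and Y, which include the OR peaks, are given beside them. In replicate 1, 135 OR peaks were intergenic (84.4%, 95% Wilson interval 78 to 89.2%), where 57.4% of all peaks were, and in replicate 2 the count was 109 (87.2%, 80.2 to 92%) against 58%. Promoter peaks numbered 23 (14.4%, 9.77 to 20.6%) and 15 (12%, 7.41 to 18.9%), against 3.32% and 3.44% of all peaks. This class was not confined to gene starts. Of the 25 and 16 OR peaks classed as promoter, exon or intron, 1 per list was labelled as a gene start. Exon labels numbered 6 and 3, and gene end labels 3 and 2. Intron peaks were 2 (1.25%, 0.343 to 4.44%) and 0 OR peaks (0%, 0 to 2.98%), where 38.3% and 37.6% of all peaks lay in introns. An intergenic peak could name several genes at once, so choosing peaks by symbol favours intergenic peaks over intron peaks. Among peaks of both lists that named OR genes alone, 68.22% were intergenic. The part of this choice in the shares above was not tested. Shares of OR peaks and of all peaks are set side by side here and below with counting intervals, without a test.

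**Figure D1:**
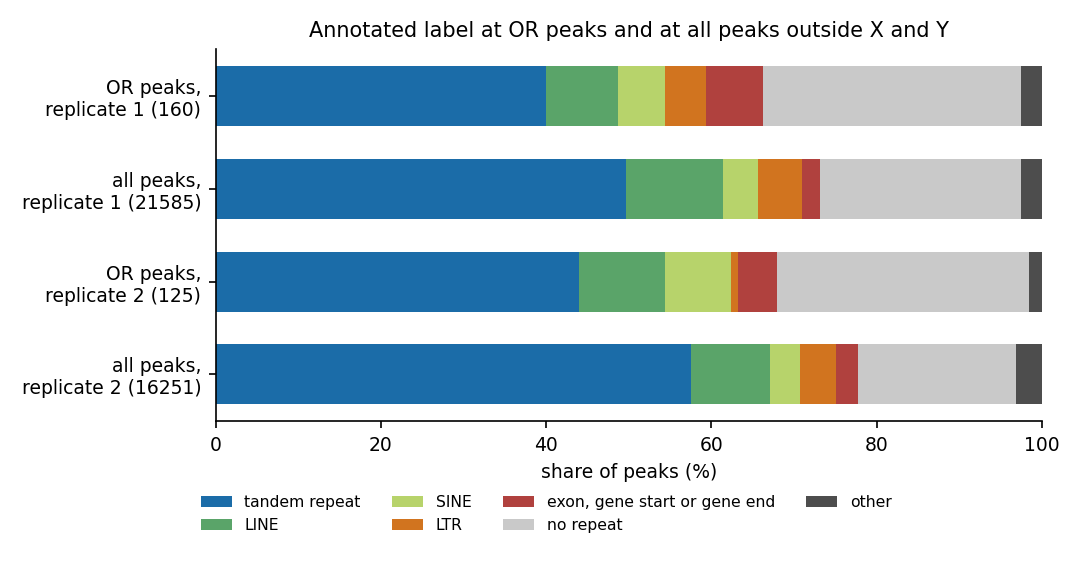
Share of peaks (%) by the authors' detailed label, for OR peaks and for all peaks outside X and Y in each replicate, with the number of peaks in brackets. Tandem repeats take 40% and 44% of the OR bars and 49.7% and 57.5% of the bars for all peaks.

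Tandem repeats, which are short units copied head to tail, were the commonest repeat label at OR peaks, as they were in the whole lists. They labelled 64 OR peaks in replicate 1 (40%, 32.7 to 47.7%) and 55 in replicate 2 (44%, 35.6 to 52.8%), against 49.7% and 57.5% of all peaks. A peak that fell on no repeat made up 31.2% and 30.4% of OR peaks, against 24.3% and 19.2%. The plot of labels shows a smaller tandem share and a larger share without a repeat in both replicates. Without the largest cluster, described below, the tandem share of the OR peaks of both lists pooled was 47.6% in place of 41.8%. OR peaks without a tandem label lay within 500 bp of a tandem-labelled peak in 37.5% and 35.7% of cases, against 49.2% and 44.9%.

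Nearly all tandem units at OR peaks were of 2 families. Units of the AGAT family (AGAT in any rotation, or its reverse complement) labelled 47 OR peaks in replicate 1 (29.4%, 22.9 to 36.8%) and 43 in replicate 2 (34.4%, 26.6 to 43.1%), against 21.8% and 26.8% of all peaks. Units of the ATCC family labelled 16 (10%, 6.25 to 15.6%) and 12 (9.6%, 5.58 to 16%), against 20.1% and 21.7%. As written in the lists, TAGA was the unit of 24 and 26 OR peaks, TCTA of 23 and 17, TGGA of 9 and 7, and TCCA of 7 and 5. In both lists the ATCC share was lower at OR peaks than over all peaks, and the AGAT share was higher. For AGAT in replicate 2 the share over all peaks lay inside the OR interval. The intervals count each peak as separate, although several can be pieces of the same repeat, as beside OR2Z1 and OR10H4. They therefore understate the spread and do not decide whether the shares differ.

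Of the 160 OR peaks of replicate 1, 83 overlapped a replicate 2 peak by at least 1 bp (51.9%, 44.2 to 59.5%), and the background over all peaks was 53.8%. Of the 125 OR peaks of replicate 2, 93 overlapped a replicate 1 peak (74.4%, 66.1 to 81.2%), and the background was 77.4%. Both shares lay near the background, so they are no result about OR genes. The overlaps joined into 78 places found in both lists, of 10278 such places in all, and 155 of the 208 OR genes (74.5%) were named at such a place, where 67% of all named genes were. Several OR genes can be named at the same place, so these gene shares do not count separate places.

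The share found in the other list was highest for peaks of many tags, at OR genes and over all peaks. In replicate 1, 25.4% of OR peaks of 5 to 6 tags, 37.5% of those of 7 to 10 tags and 92.9% of those of 11 to 20 tags were found in replicate 2, against 21.4%, 44.7% and 78.8% of all peaks. All 25 OR peaks of at least 21 tags in replicate 1, and all 19 in replicate 2, were found in the other list, against 97% and 97.4% of all peaks. In replicate 2 the shares at the lower counts were 53.3%, 70% and 93.5%, against 54.5%, 80.7% and 94.2%. The smallest OR peaks, of 5 tags, numbered 40 and 28.

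**Figure D2:**
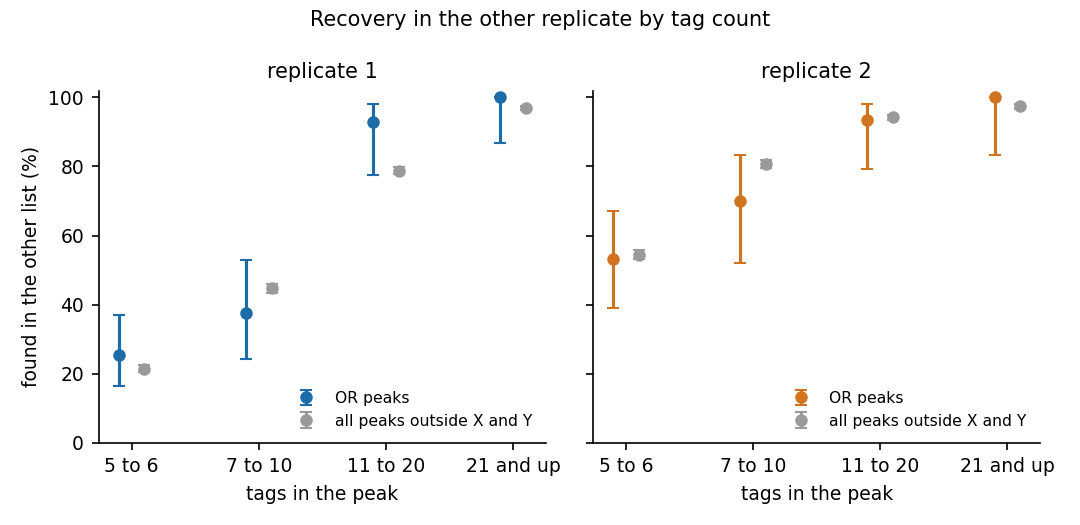
Share of peaks found in the other list (%) by the number of tags in the peak, for OR peaks and all peaks outside X and Y, with 95% Wilson intervals that cover counting error only. In replicate 1 the OR share goes from 25.4% at 5 to 6 tags to 100% at 21 or more tags.

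By label, tandem peaks had the higher share found, at OR genes and over all peaks. OR peaks on a tandem repeat were found in 48 of 64 cases in replicate 1 (75%, against 71.7% of all tandem peaks) and in 53 of 55 in replicate 2 (96.4%, against 91.2%). Other OR peaks were found in 35 of 96 (36.5%, against 36%) and in 40 of 70 (57.1%, against 58.8%). Peaks closer than 1000 bp, which can be pieces of the same enriched stretch, were joined into 112 OR sites, of which 60 held peaks of both lists (53.6%, 44.4 to 62.5%, against 57.6% of all sites made the same way). Of the 58 sites with a tandem label 46 did (79.3%, 67.2 to 87.7%, against 79.1%), and of the 54 without one 14 did (25.9%, 16.1 to 38.9%, against 21.2%).

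Fold enrichment is the authors' own ratio of ChIP tags to local background for each peak. Its median over OR peaks was 53.9 in replicate 1 and 54.4 in replicate 2, the same as over all peaks to that precision, and OR peaks ranged from 14.2 to 196 and from 13.2 to 204. The median number of tags was 7 and 8, against 9 and 8. OR peaks found in the other list had median folds of 67.4 and 64.3, and the others had 40.5 and 35.5. A fold has a grain, because 1 tag over the genome-wide background is worth a fold of 13.5 and 13.6, and 65 and 50 OR peaks (40.6% and 40%) had such a whole-step fold, against 36.2% and 34.6% of all peaks.

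At the 78 OR places found in both lists, the strongest peak of each list had median folds of 68.7 and 68, and over all 10278 places 77.1 and 65.5. The folds of the replicates went together across OR places (Pearson r = 0.783, Spearman rho = 0.793, n = 78 places), much as across all places (0.767 and 0.721), which is a description, since both lists share 1 input and the same caller. Replicate 1 was higher at 41 OR places (52.6%, against 61.7% of all places) and replicate 2 at 37. A tandem repeat labelled a peak in either list at 50 OR places (64.1%, against 74.5% of all places), with median folds of 83.6 and 80.9. The 28 OR places without one had 49.1 and 47.1.

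**Figure D3:**
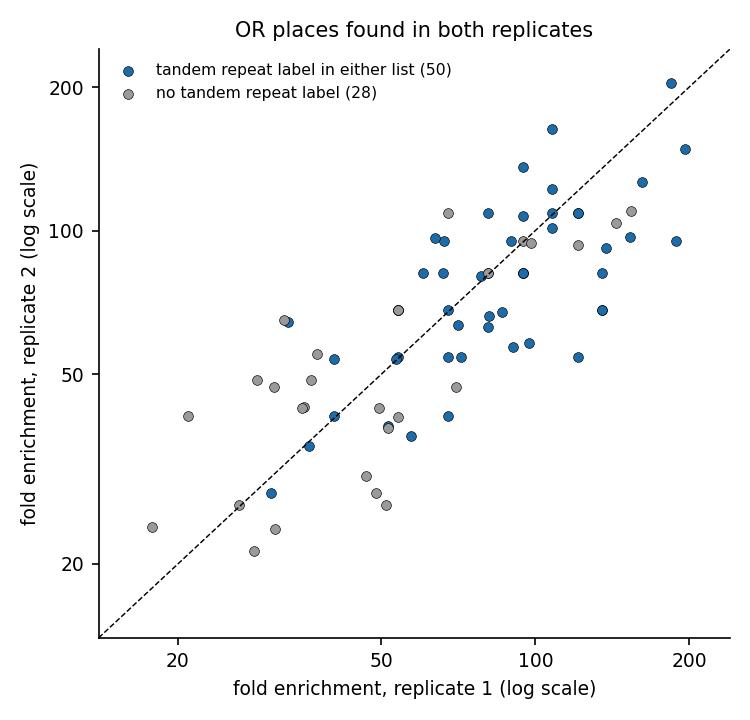
Fold enrichment in replicate 1 against replicate 2 (both log scales) for the 78 OR places found in both lists, each point 1 place, coloured by whether a tandem repeat labelled a peak there. The 50 tandem places reach a lower fold of 184, and the 28 others reach 110.

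The strongest OR place by its lower fold lay between OR5AC2, OR5H1, OR5H14 and OR5H15 on chromosome 3 (97819857 to 97820284, in hg19 like all peak positions here), on an AGAT-type repeat. It had 105 tags and a fold of 184 in replicate 1, and 64 tags and a fold of 204 in replicate 2. A place in the promoter class of OR6X1 on chromosome 11 (123626745 to 123626865) came next, with 60 and 46 tags and folds of 196 and 148. Both places carried a tandem repeat in both lists.

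The third lay between OR1E1, OR1E2, OR3A3 and the pseudogene OR3A4P on chromosome 17 (3304661 to 3305140), where 3 peaks of each list joined and the strongest had folds of 162 and 127. The fourth, on chromosome 11 (123865624 to 123865997) among OR10G, OR4D5, OR6T1 and OR8D4 genes, fell on no repeat and had 100 and 52 tags with folds of 154 and 110. The fifth, beside OR4A47 (chromosome 11, 48593423 to 48593546), had folds of 121 and 109 on an AGAT-type repeat. The sixth, in the promoter class of OR5A1 (chromosome 11, 59209420 to 59209490), held 16 and 15 tags with folds of 121 and 109. Of these 4 places, the fourth was the only one without a tandem repeat.

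The seventh and eighth both lay among OR2A genes on chromosome 7, at 143675395 to 143675482 (folds of 108 and 122) and at 143723696 to 143723784 (108 and 109). The ninth, among the OR1L genes, OR1B1 and OR1Q1 on chromosome 9 (125442509 to 125442634), was higher in replicate 2, with 20 and 26 tags and folds of 108 and 163. The eleventh lay among OR4D genes and OR5A1 on chromosome 11 (59236147 to 59236247), with folds of 108 and 101. All 4 places carried a tandem repeat of the AGAT type.

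The tenth and twelfth had the most tags of the 12 places, both on chromosome 19. OR1I1 had a peak of 379 tags in replicate 1 and 298 in replicate 2 (15199227 to 15200117), with folds of 144 and 104. It was classed as promoter and labelled as the end of the gene. Beside OR2Z1, ACTL9 and ZNF558 (8830342 to 8830839) an ATCC-type repeat held 141 and 84 tags, with folds of 153 and 96.9. In all, 10 of these 12 places had a tandem repeat, 9 were intergenic, 5 lay on chromosome 11, and 8 had the higher fold in replicate 1. They were chosen by fold, so their folds are a description.

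The peaks on OR genes themselves numbered 25 in replicate 1, at 17 genes, and 16 in replicate 2, at 10 genes. In each list 13 were found in the other, which is 52% and 81.2%, against 52.1% and 77.4% of all peaks classed as promoter, exon or intron. The 9 genes with such a peak in both lists were OR2T1, OR5M11, OR5B3, OR5A1, OR6X1, OR10G8, OR1I1, OR10H2 and OR10H1. In both lists promoter was the usual class, and a tandem repeat labelled 2 of these peaks per list.

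OR5M11 had its peak at the gene start, with 16 tags and a fold of 121 in replicate 1 and 12 tags and 93.4 in replicate 2 (chromosome 11, 56310970 to 56311045). OR5B3 had a peak labelled as its gene end, with 7 tags and a fold of 67.4, and 18 tags and 109 in replicate 2. OR2T1 had 3 and 4 separate small peaks between 248571379 and 248571807 on chromosome 1, none on a repeat. Their tags ranged from 5 to 6 with folds of 28.6 to 46.7 in replicate 1, and from 5 to 11 with folds of 30.5 to 48.6 in replicate 2.

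OR6X1 had 4 peaks in replicate 1 with 5, 37, 60 and 32 tags and 3 in replicate 2 with 21, 46 and 5 tags. Its strongest was the AGAT-type repeat, and its flanks reached folds of at most 49.4 and 42.6. OR5A1 likewise had a repeat peak with smaller ones beside it, of 5 and 6 tags in replicate 1 and 5 in replicate 2, and those smaller ones were found in no peak of the other list. OR10G8 had peaks of 11 and 8 tags in replicate 1 and of 8 tags in replicate 2, with folds of 51.2, 20.2 and 26.5.

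OR10H1, OR10H2 and OR10H5 are neighbours on chromosome 19, and peaks there carried an exon label. OR10H1 (15918579 to 15918624) had 5 tags with a fold of 53.9 and 8 tags with 68. OR10H2 (15839079 to 15839132) had 5 tags with 53.9 and 6 tags with 40.7. OR10H5 had 8 tags with a fold of 94.4 in replicate 1 (15905084 to 15905126). This was the highest fold of an OR peak of that list without a partner, shared with a peak of 7 tags beside OR11G2, OR11H4 and OR11H6 on chromosome 14 (20748127 to 20748165). These genes are similar in sequence, so reads may have been placed at the wrong copy, and the sources used here do not say how the authors treated reads that fit several places.

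The remaining genes had a peak in 1 list only, each of 5 or 6 tags. In replicate 1 they were OR10J5 at its gene end (fold 36), OR6T1 (26.2), OR10G7 (24.6) and OR1N1 (67.4) in exons, OR1M1 on a LINE (46.7), and the introns of OR2L13 on an AluY (60.8) and OR51B5 on an L1PA2 (53.9). In replicate 2 the exon of OR4N2 had 5 tags (25.1). None of these had a partner in the other list, and peaks of 5 to 6 tags were found in the other list in 25.4% and 53.3% of OR cases.

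OR peaks lay in 32 clusters, taking peaks less than 1 Mb apart as 1 cluster. Of these, 24 held peaks of both lists and a place found in both, and 8 held peaks of 1 list only. The 3 clusters with most peaks held 101 of the 285 OR peaks of both lists (35.4%). Chromosome 11 held 61 OR peaks in replicate 1 (38.1%) and 46 in replicate 2 (36.8%), where it held 5.42% and 5.38% of all peaks, and chromosome 19 held 25 (15.6%) and 24 (19.2%), against 4.64% and 4.9%. OR genes themselves are concentrated on chromosome 11.

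**Figure D4:**
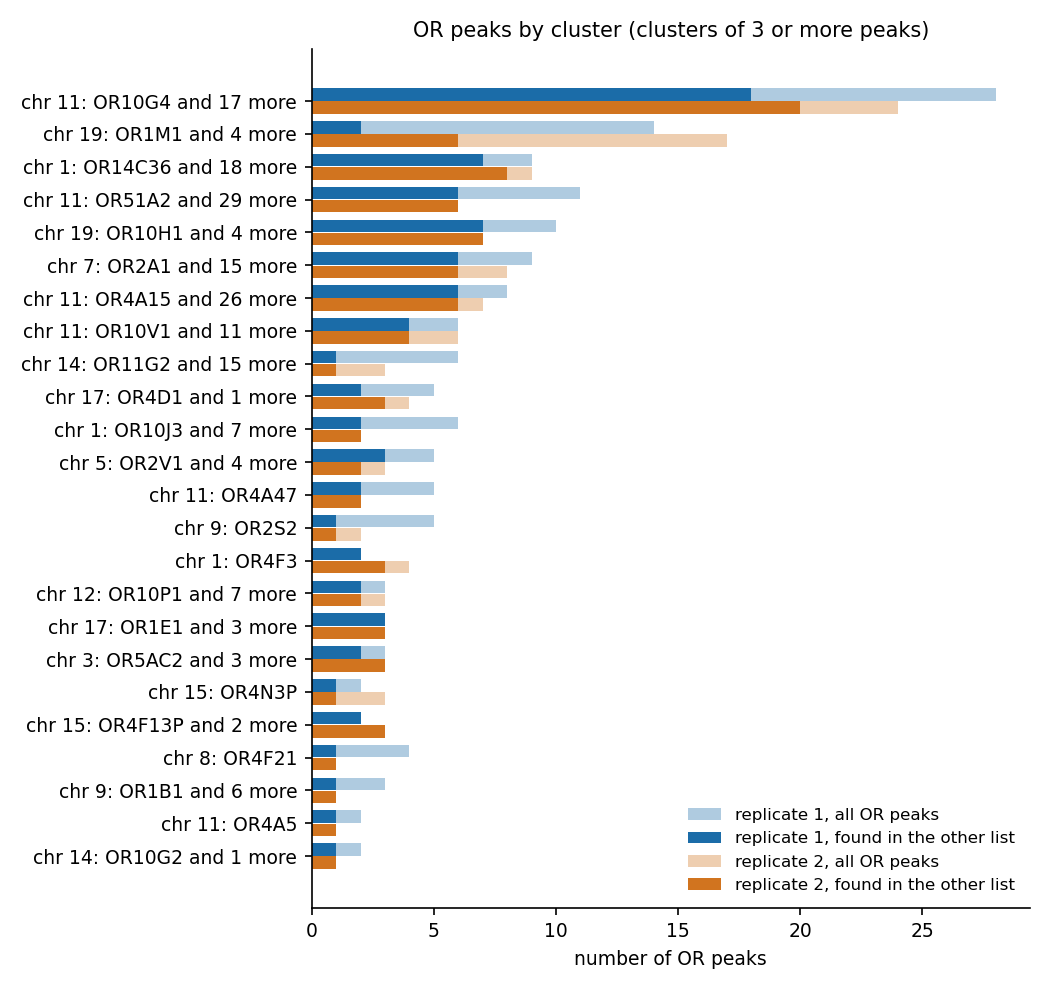
Number of OR peaks by cluster, for clusters of 3 or more peaks, with pale bars for all OR peaks and dark bars for those found in the other list, in each replicate. The long arm cluster of chromosome 11 has 28 and 24 peaks with 18 and 20 found. The OR2Z1 cluster of chromosome 19 has 14 and 17 with 2 and 6 found. Over all peaks outside X and Y, 53.8% and 77.4% were found.

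The largest cluster spanned 834 kb of the long arm of chromosome 11 (123577051 to 124410750) with 28 and 24 OR peaks, 18 OR genes and 16 places found in both lists. Its members included OR6X1, OR6M1, OR8D4, OR4D5, OR6T1 and the OR10G and OR8G genes. Few of its peaks carried a tandem label (3 and 5), its median folds were 30.2 and 38.2, and its median tags were 9.5 and 10. In the other list 18 of the 28 and 20 of the 24 peaks were found, where 53.8% and 77.4% of all peaks were.

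This stretch held 34.8 and 28.8 peaks per Mb, where chromosome 11 had 8.67 and 6.48. The stretch was chosen for its many OR peaks and ends at its own outermost ones, so its density is a description. None of its OR peaks had a fold at the genome-wide background, and in the flanks of 2 Mb on each side 1 of 41 peaks (2.44%) and 0 of 24 did, against 33.5% and 30.7% over the chromosome. By the caller's rule a fold off these steps was taken against a local input level above the genome-wide one. Its part in the number and the folds of these peaks was not tested.

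**Figure D5:**
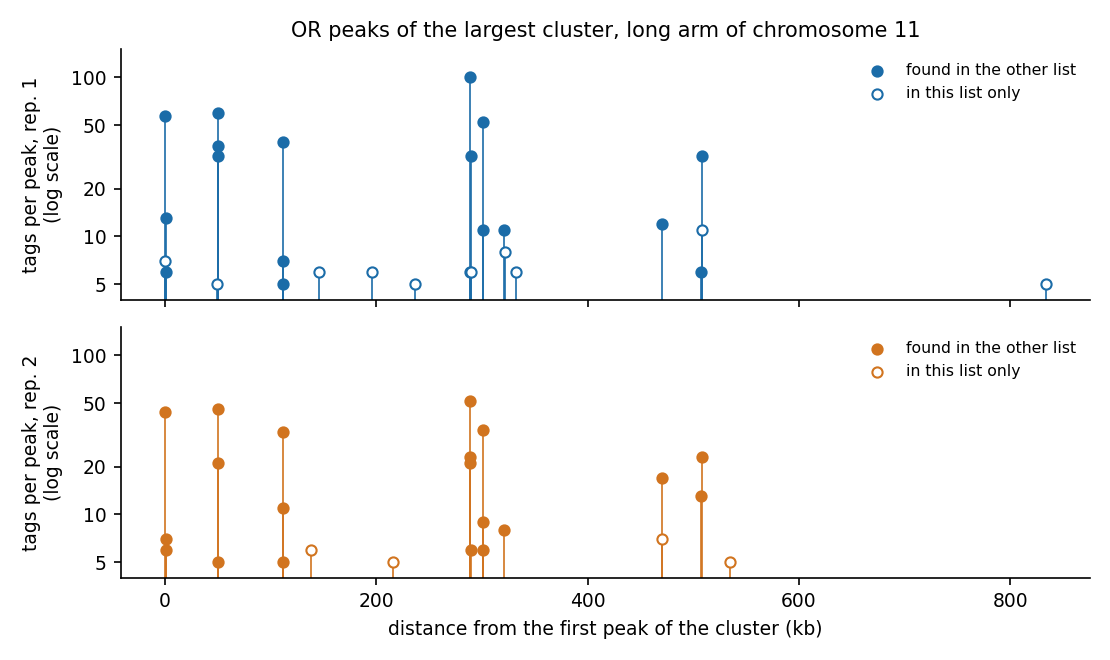
Tags per peak (log scale) against distance from the first peak (kb) in the largest OR cluster, replicate 1 above and replicate 2 below, with filled points for peaks found in the other list. The highest points are 100 tags in replicate 1 and 52 tags in replicate 2, at the same place among the OR10G genes.

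In the map of this cluster the peaks with most tags were found in both lists. Beside OR6M1 and OR6X1 a TCTA repeat held 57 and 44 tags (folds of 70.7 and 63.3). Between OR6X1 and OR8D4 a place (123688610 to 123688727) held 39 and 33 tags (94.4 and 107). Further places among the OR10G genes held 52 and 34 tags (81.1 and 66.1), and among the OR8G genes 12 and 17 tags (32.2 and 64.9) and 32 and 23 tags (71.4 and 54.2). The place between OR6X1 and OR8D4 was labelled no repeat in replicate 1 and TAGA repeat in replicate 2, although the intervals overlap. The places of 52 and 34 tags and of 32 and 23 tags also carried a TAGA label in replicate 2 only. Such a switch of the tandem label of the strongest peak between lists occurred at 7 of the 78 OR places and at 1182 of all 10278.

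The second cluster (chromosome 19, 8787691 to 9356767) had 14 and 17 OR peaks but only 2 places found in both lists. OR2Z1 was named for 13 and 16 of them, the most of any OR gene. One place held 152 and 71 tags in its strongest peaks (8787821 to 8788557, folds of 138 and 91.9) and was 1 peak in replicate 1 and 5 in replicate 2, and the other was the ATCC-type place given above. Toward MUC16, a membrane mucin, 6 and 7 peaks named both genes, and 0 of them overlapped a peak of the other list. These had 6 to 9 and 6 to 11 tags and folds of 15.4 to 25.8 and 13.2 to 26.6, with no tandem label. Over all peaks of 5 to 6 tags 21.4% and 54.5% were found in the other list, and of 7 to 10 tags 44.7% and 80.7%. Over all peaks without a tandem label the shares were 36% and 58.8%.

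The cluster on the long arm of chromosome 1 (247644370 to 248571982) had 9 OR peaks in each list and 7 places found in both, and named 19 OR genes. A place among the OR2M genes (248408704 to 248408788) had 18 and 10 tags with folds of 135 and 68, and a place between OR2B11, OR2C3 and OR2W5 had 22 and 13 tags with 97.3 and 58.2. OR2T1, described above, lies at its end. Of the named OR genes, OR6X1 had 22 peaks in all, OR8D4 21, OR6T1 18 and OR4D5 17, after 29 for OR2Z1.

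Class I receptors gave 30 named genes and 24 of them (80%) were at a place found in both lists, against 131 of 178 class II genes (73.6%). They were named for 11 and 6 peaks in the short arm cluster of chromosome 11 (4698650 to 5860215), and 6 were found in each direction, which is 54.5% (28 to 78.7%) and 100% (61 to 100%). For class II the shares were 51.7% (43.7 to 59.6%) and 73.1% (64.5 to 80.3%). The intervals of the classes overlap in both replicates, and the class I counts are small.

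Inside that cluster, OR52A1, OR52A5 and OR51V1 were named together with the beta-globin genes HBB, HBD, HBG1, HBG2 and HBE1 and the pseudogene HBBP1. Replicate 1 had 3 such peaks and replicate 2 had 1. The place they shared (5205578 to 5205650) had 16 tags and a fold of 63.6 in replicate 1, where it was labelled TAGA, and 12 tags and 96.6 in replicate 2, where it was labelled as no repeat. Peaks at 5194316 to 5194354 (6 tags, fold 80.9) and 5205672 to 5205728 (5 tags, 40.5) were in replicate 1 only.

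Some OR genes are present in several similar copies in the build. The OR4F genes were named only for intergenic peaks. In replicate 1 these were 12 peaks on 5 chromosomes, with 8 found and folds of 18.7 to 86.2. In replicate 2 they were 11 on 4 chromosomes, with 9 found and folds of 28.2 to 81.6. Over all peaks 53.8% and 77.4% were found in the other list. On the alternative haplotypes of chromosome 6 there were 3 and 2 OR peaks, all intergenic, and 0 were found in the other list. Those of replicate 1 lay on 3 haplotypes and those of replicate 2 on a different one, so OR peaks of the lists could not overlap there. This 0 is therefore no measure of recovery. Of the OR peaks of replicate 2 without a partner, 3 shared the highest fold of 68. They lay beside OR2J2 on such a haplotype (7 tags), among OR4C genes, OR4P4 and OR4S2 on chromosome 11 (55383974 to 55384112, 15 tags), and beside OR2S2 on chromosome 9 (35971697 to 35971734, 5 tags). The primary sequence of chromosome 6 held 0 OR peaks in either list.

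Against the RefSeq table, 205 of the 208 symbols matched, and 197 of its 389 protein-coding OR genes off X and Y were named for a peak (50.6%), where 38.6% of all its protein-coding genes off X and Y were. An intergenic peak named up to 9 OR genes at once, and 190 of the 208 were named only as neighbours. The gene shares here therefore do not count separate peaks, and the part of this joint naming in them was not tested. Of its OR pseudogenes, 8 of the 41 marked as transcribed were named (19.5%, against 24.6% of all such pseudogenes). Of the other 423, 0 were named (against 0.132%). Only 19 of all 14358 pseudogenes of that kind were named, so this 0 is no result about OR genes. Most of the named OR genes belonged to families 2 (41 genes), 4 (38), 5 (21), 6 (17) and 10 (16). The RefSeq table held 68, 50, 48, 30 and 35 protein-coding genes of these families. The named counts include pseudogenes, so they are not shares of these sizes. By class, 54.5% of the 55 class I and 50% of the 334 class II protein-coding genes of the table were named.

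Other chemoreceptor genes and the neurons' signalling genes were named too. Of taste, trace amine and vomeronasal receptors, 15 genes were named, 12 of them at a place found in both lists. The size of this group was not counted, so no share of it is given. TAS2R3, TAS2R4 and TAS2R5 had the same values, as did TAS2R39 and TAS2R40, and VN1R2 and VN1R4. These gene counts therefore do not count separate peaks. TAAR9, a trace amine receptor, had a promoter peak with folds of 66.7 and 81.6, and the bitter taste receptor TAS2R16 a neighbouring peak with 121 and 122. Of 22 genes of olfactory signalling and receptor choice, 14 were named, where 38.6% of all RefSeq protein-coding genes off X and Y were. Gene length was not taken into account. Of these 14, 11 were at such a place, and CNGB1, DLX5 and GNB1 were named in replicate 1 only. REEP1, which helps receptors reach the membrane, had folds of 212 and 151 at its strongest peak in each list. Both peaks lay on a tandem repeat in an intron and were not checked for overlap. The background for genes at a place found in both lists is 67%.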

How the data were processed

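YBX1 ChIP-seq and 1 input library of HEL cells were analysed. Per the submitters' processing notes, the tools were MACS 1.4, Bowtie2, Trimmomatic 0.36 and bcl2fastq 02.14.01.07, with the build hg19. Peaks were called on each replicate against the same input with MACS 1.4.2 and a p-value cutoff of 1e-05, per the file headers. The authors then filtered and annotated the lists by a rule not given in the sources used here, nor is the treatment of reads that fit several places. Per the file headers, each deposited row gives a count of tags, a fold enrichment (a ratio to the local background), a false discovery rate in percent (0 for all peaks) and a width in bp. The deposited score, MACS's scaled negative log10 of the p-value, was read from its values because its column name was lost. The alignment named in the header of replicate 2 carries another number than its label, and the label was followed.

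Gene symbols were split at semicolons and OR symbols kept. Members, lists and tests were chosen with earlier results of these data known. Peaks overlapping by at least 1 bp counted as found in the other list, peaks of 2 lists that overlap formed a place, and gaps of at most 1 Mb joined a cluster. A fold within 0.006 of a whole number of tags over the genome-wide background counted as at that background. Named in the text are all OR peaks classed as promoter, exon or intron, the 12 places highest by the lower of their folds, the 5 genes named for most peaks, the 3 clusters with most peaks, the strongest OR peak of each list without a partner, and places named with globin genes. Intervals are 95% Wilson intervals and cover counting error only. No hypothesis test was run, because peaks are not replicates and both lists share the input. Python 3.11.15, pandas 2.3.3, numpy 2.4.6, scipy 1.17.1 and matplotlib 3.10.9 were used, and the code was tested on simulated lists, where 82 of 82 checks passed. Promoter windows and gene classes came from RefSeq. Distances from peaks to genes were not computed.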

Additional observations from a re-analysis of the deposited data

How the results depend on the processing

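Of 58 alternative values, 42 stayed close to the value reported, within its counting interval for a share, within the SD between the lists for a median and within 1.5 times for a count. Among these 42, the lowest count of genes was 154 (p-value of at most 1e-10) and the lowest count of places 59 (peaks extended by 200 bp). Only peaks with a p-value of at most 1e-10 gave shares found of 67.57% and 88.71%, 48 places, a tandem share over both lists of 64.71%, a median fold of 80.91 and 15 median tags. An overlap of at least 50% of the shorter peak gave 65.6% in replicate 2, and extending peaks by 200 bp gave 75.62% and 84.8%. Peaks naming OR genes alone gave 81.82% in replicate 2, 40 places, 119 genes and an intergenic share of 68.22%. Leaving out a replicate gave median folds of 53.94 to 54.4, median tags of 7 to 8, and 167 to 197 genes. Without the largest cluster, an alternative chosen after seeing the data, the tandem share was 47.64%. No paired analysis was possible because no result comes from a test between groups. Many OR peaks hold 5 to 10 tags, which limits what an absent partner shows.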

Other observations

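Some OR peaks also named genes known from blood cells, chosen here after their values were seen. EPX, eosinophil peroxidase, was named for 5 OR peaks in replicate 1 and 4 in replicate 2, with the highest folds 98.1 and 94.2. NLRP3, an inflammasome sensor, was named for 3 and 2 (97.3 and 58.2), and ACKR1, the Duffy antigen receptor, for 1 and 1 (31 and 23.7). MPO, myeloperoxidase, had 1 in replicate 1 and KEL, a red cell surface protein, 1 in replicate 2.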
